A study of Bos taurus with 29 samples.

Results

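Transcripts restricted to the luminal epithelium (LE) of the cow endometrium were described in laser-microdissected cells, together with the glandular epithelium (GE) and the stroma (ST). A transcript was kept when its mean level over the LE libraries of cows with low plasma progesterone (P4low) was at least 10 TPM, a unit of level scaled to transcript length and library size, and at least 10 times both the mean over P4low GE and the mean over P4low ST. The rule kept 68 of 37925 quantified transcripts (0.179%), called LE-restricted here. With the cell types exchanged, it kept 107 transcripts for GE and 11 for ST. The members were chosen by these measured P4low means, so levels in those 22 libraries are given as a description. Fits of progesterone that also use them are reported as such, and nothing is read from their p-values.

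The libraries came from 13 Holstein cows, biopsied at 45 days postpartum and judged free of uterine disease. Cows were P4low (9 cows) or P4high (4 cows), on either side of 1 ng/mL of plasma progesterone. There were 6 LE, 7 GE and 9 ST libraries of P4low cows, and 1 LE, 3 GE and 3 ST libraries of P4high cows, 29 in all. Cows are numbered 1 to 13 here, and all 3 cell types were available from 6 P4low cows (3, 6, 10, 11, 12 and 13) and from 1 P4high cow (9). Each library was made from 2.5 ng of RNA of captured cells, and ST captures may hold immune and endothelial cells beside fibroblasts. Library totals lay between 24860445 and 33209181 estimated counts, with a median of 28494910. In such bulk samples, fewer cells of a type and less RNA per cell cannot be told apart. The P4 groups differ also in whatever else separates those cows, and the P4high LE group is 1 cow.

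The luminal epithelium is the sheet of cells that lines the uterine cavity, and is the first maternal surface met by the conceptus, by semen and by microbes after calving. The glandular epithelium is continuous with it and secretes into the lumen, and the stroma lies beneath both. Progesterone from the corpus luteum acts on all 3 compartments and prepares them for pregnancy. The deposited tables and the reference used here do not pair the transcripts with genes. The members are therefore given by identifier, or by their rank in mean P4low LE level, with no function, and the defining markers of LE, GE and ST could not be looked up to check the labels.

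The 68 transcripts ranged in P4low LE from a mean of 10.1 to 1030.9 TPM with a median of 41.7 TPM. The mean estimated count behind a member was between 15.7 and 46025 per P4low LE library, with a median of 1117. In P4low GE the median of the members' mean counts was 54.5, and in P4low ST it was 24.9. Counts were thus high in LE for most members, whereas 9 members had a mean under 10 counts in GE and 25 in ST. A count of 3, taken as the floor, corresponded to 0.0903 to 0.121 CPM (counts scaled to library size alone). Intervals and floors of this kind cover counting error only.

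The median member was 16.9 times higher in P4low LE than in the higher of the other types, and the largest ratio was 590. GE stood closer to LE than ST did for 58 members, which had the higher of the 2 other means in GE. At the ratio limit, the last transcript inside was ENSBTAT00000073606.1 at 10.2 times, and the first outside was ENSBTAT00000018774.4 at 9.78 times. At the level limit, ENSBTAT00000065979.2 was inside at 10.1 TPM and ENSBTAT00000078955.1 outside at 9.78 TPM.

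**Figure D1:**
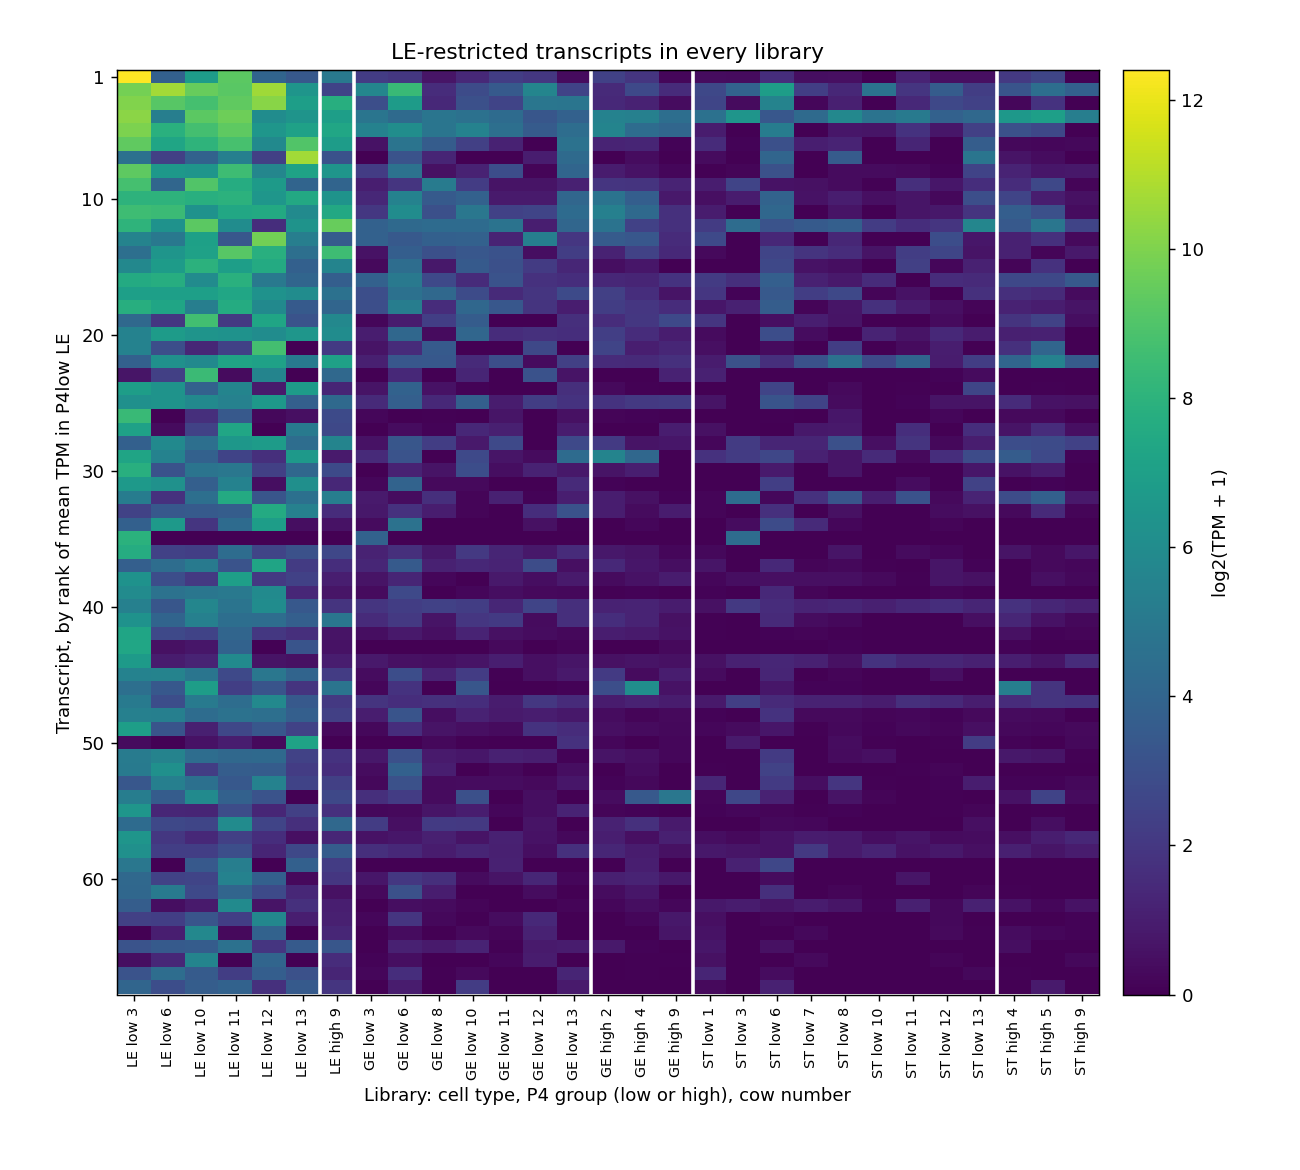
Level of the 68 LE-restricted transcripts (rows, by rank of mean TPM in P4low LE) in the 29 libraries (columns, by cell type, P4 group and cow), coloured by log2(TPM + 1), with white lines between groups. The 7 LE columns are bright and uneven from cow to cow, and GE and ST of cow 6 are brighter than the other GE and ST columns.

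The summed level of the 68 transcripts separated LE from the other types in every cow. It lay between 4132 and 16163 TPM in P4low LE with a median of 6751 TPM, which is 0.413% to 1.62% of a library. It lay between 174 and 1077 TPM in P4low GE (median 249), and between 67.5 and 413 TPM in P4low ST (median 95.7). The lowest P4low LE library held 3.84 times the sum of the highest P4low GE library. Cow 3 had the highest LE sum, 2.07 times the next, and without it the P4low LE sums ended at 7810 TPM. Cow 6 had the highest sums in both GE and ST, and without it they ended at 319 and 203 TPM.

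**Figure D2:**
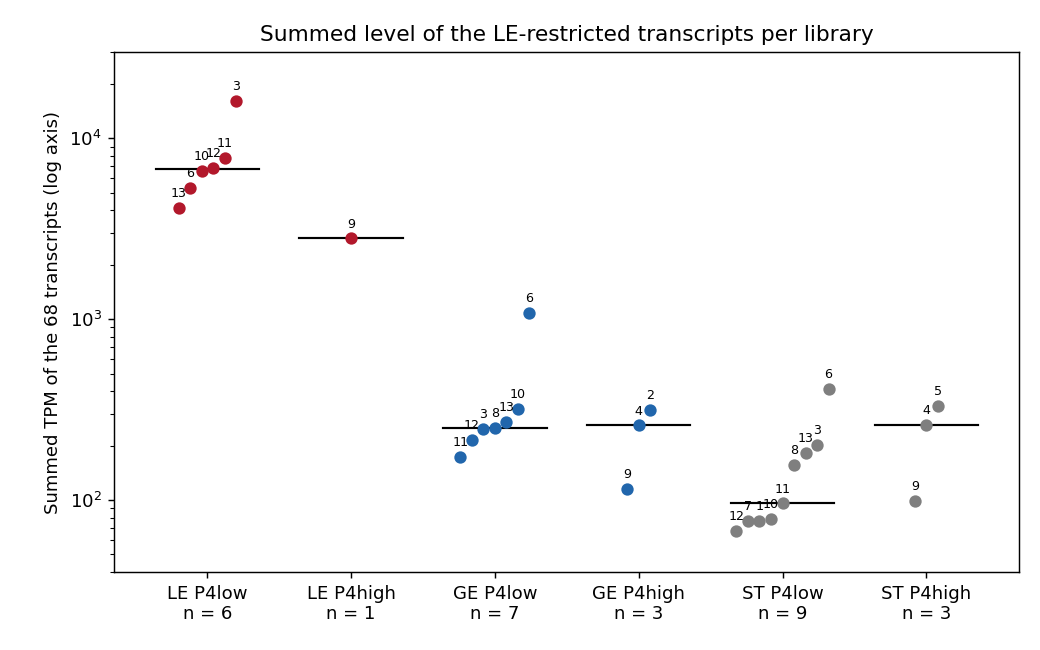
Summed TPM of the 68 LE-restricted transcripts in each library (log axis), by cell type and P4 group, with points numbered by cow and a line at the group median. P4low LE lies between 4132 and 16163 TPM and LE of the single P4high cow at 2794 TPM, above all GE and ST libraries, of which cow 6 is the highest at 1077 TPM.

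ENSBTAT00000008948.6 had the highest mean in P4low LE, 1030.9 ± 2163 TPM (SD, n = 6). Its level was 5419.7 TPM in LE of cow 3, 612 in cow 11, 117 in cow 10, 14.8 in cow 12, 13.0 in cow 6 and 9.50 in cow 13. Its highest level was 3.82 TPM in P4low GE and 2.09 TPM in P4low ST, so LE did not overlap with either. LE of cow 3 thus held most of this transcript, and it supplied 33.5% of the summed level of all members in that library.

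ENSBTAT00000011866.5 was second, at 927 ± 603 TPM (SD, n = 6). LE held 1647 TPM in cow 6, 1598 in cow 12, 894 in cow 3, 739 in cow 10, 598 in cow 11 and 86.8 in cow 13. GE of cow 6 held 333 TPM and ST of cow 6 119 TPM, against at most 51.6 TPM in the other P4low GE and 25.3 TPM in the other P4low ST libraries. GE of cow 6 was thus above LE of cow 13, and the groups overlapped, although LE was the highest of the 3 types in each of the 6 cows.

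For 20 members all 6 P4low LE libraries were above all P4low GE and ST libraries, and 48 overlapped with at least 1 of them. The same held for 0.435% of the 8268 transcripts with a P4low LE mean of at least 10 TPM, a difference that the choice of the members fixes. LE stood apart from all GE libraries for 23 members (0.75% of the 8268) and from all ST libraries for 38 (6.69%), so the overlap was more often with GE. Without the 3 libraries of cow 6, 31 members stood apart from both other types (0.81% of the 8268), 35 from GE (1.81%) and 43 from ST (8.22%).

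Other members were even between cows, and were singled out after their values were seen. ENSBTAT00000068469.1, at rank 20, had the lowest coefficient of variation, 0.288 over the 6 P4low LE libraries. It held 110 TPM in cow 6, 89.2 in cow 13, 85.3 in cow 10, 78.7 in cow 11, 64.0 in cow 12 and 44.0 in cow 3. P4low GE held 0.286 to 16.5 TPM and P4low ST 0 to 6.62 TPM, so no GE or ST library reached the LE range.

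The members were far less even between cows than LE transcripts at large. The coefficient of variation over the 6 P4low LE libraries had a median of 1.15 (range 0.288 to 2.45), against 0.358 over the 8268 transcripts with a P4low LE mean of at least 10 TPM. A single cow held over 50% of the summed LE level for 32 of 68 members (47.1%), against 4.21% of the 8268. It held over 80% for 13 members (19.1%), against 0.46%. A level of at least 10 TPM was met in all 6 P4low LE libraries by 20 members (29.4%), against 64.8% of the 8268, and in 1 library by 8 members. The means that chose the members come from the same libraries, so these shares describe the set and were not tested.

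**Figure D3:**
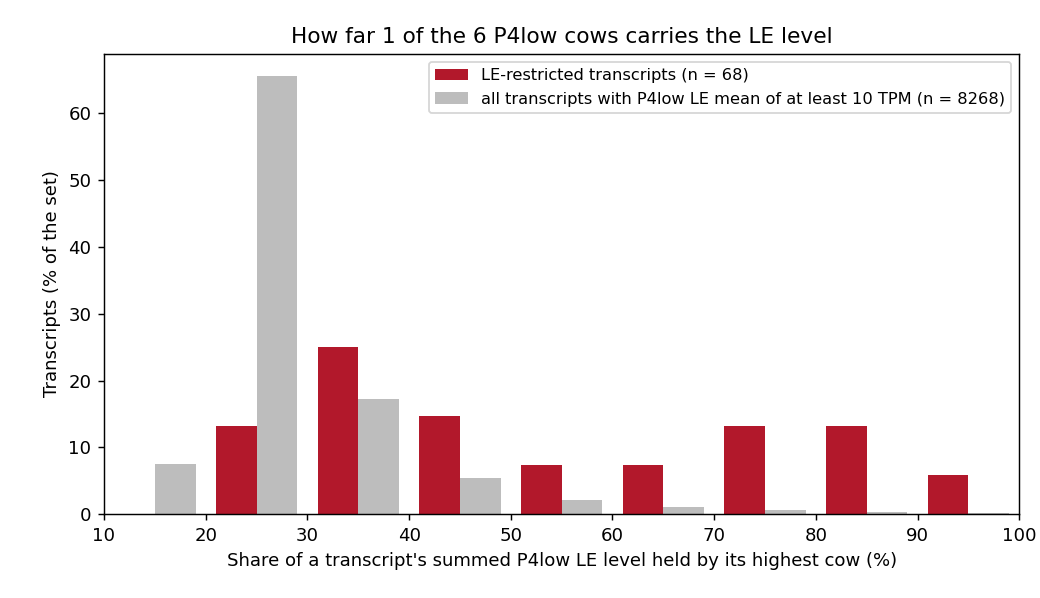
Share of a transcript's summed P4low LE level held by its highest cow (x axis, percent), for the 68 LE-restricted transcripts and for the 8268 transcripts with a P4low LE mean of at least 10 TPM (y axis, percent of each set). For 32 members 1 cow holds over 50%, and the comparison set lies mostly between 20% and 30%.

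The cow with the highest LE level was cow 3 for 26 members (38.2%), cow 11 for 12, cow 12 for 12, cow 10 for 9, cow 6 for 7 and cow 13 for 2. Over the 8268 transcripts cow 6 was highest most often (31.0%) and cow 3 in 16.2%. The 26 members highest in cow 3 made up 75.3% of the summed member level in its LE. The 2 members highest in cow 13 rested nearly wholly on that cow, with a median share of 96.8%.

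The members carried by 1 cow included 3 that were singled out after their values were seen. ENSBTAT00000077173.1, at rank 35, was present in the 3 libraries of cow 3, with 244 TPM in LE, 13.9 in GE and 19.96 in ST, and was listed at 0 in the other 26 libraries. ENSBTAT00000063757.2, at rank 7, held 1637 TPM in LE of cow 13 and 4.06 to 39.4 TPM in LE of the other P4low cows. Cow 13 was also the highest for it in GE (18.7 TPM) and in ST (27.4 TPM). ENSBTAT00000030920.4, at rank 50, held 147 TPM in LE, 2.46 in GE and 3.59 in ST of cow 13, and at most 0.963 TPM in any other library. In these 3 members the high cow was thus the same in LE, GE and ST.

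Over all members this was not the usual pattern. The cow that was highest in LE was also the highest among P4low GE libraries for 21 of 68 (30.9%), against 34.8% of the 8268 transcripts. That cow was also the highest in ST for 17 of 67 members with a level above 0 in those ST libraries (25.4%), against 30.5%. Without cow 6, the shares were 30.9% against 35.0% in GE, and 12 of 64 (18.8%) against 31.1% in ST. The member shares were thus no higher than those of LE transcripts at large.

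Some members rose and fell together from cow to cow in LE. Over the 7 LE libraries, log2(TPM + 1) of ENSBTAT00000031225.3 and ENSBTAT00000067591.1 had a Pearson correlation of 0.996. The former held 120 TPM in cow 3, 112 in cow 13, 82.9 in cow 6, 47.0 in cow 11, 13.5 in cow 10, 1.42 in cow 9 and 0.841 in cow 12. The latter held 100.6 TPM in cow 3, 71.7 in cow 13, 76.0 in cow 6, 44.3 in cow 11, 12.6 in cow 10, 1.57 in cow 9 and 0.395 in cow 12. Both were thus high in cows 3, 13 and 6 and low in cows 9 and 12. The pair was the most alike among all pairs of members, and the libraries are shared by both, so the value is a description. Transcripts of 1 gene or of near-identical genes can share reads that Salmon divides between them, and whether such pairs belong to 1 gene is not given in the sources used here.

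Transcript length was a property that the rule did not use directly. The median length of the members was 1415 bases, against 1786.5 bases over the 8268 transcripts with a P4low LE mean of at least 10 TPM, and 2016 bases over all 37925. Lengths ran from 198 to 9762 bases, within the range of the comparison set.

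The comparison of cell types within each cow asked how far the restriction held in single animals. LE exceeded both GE and ST of the same cow for 60 to 66 of the 68 members in the 6 P4low cows. The limits of the rule (at least 10 TPM, and at least 10 times both other types) were met within cow 3 by 51 members, cow 11 by 45, cow 12 by 35, cow 10 by 34, cow 13 by 19 and cow 6 by 0. No member met them in all 6 P4low cows, 5 did in 5 cows, 14 in 4 and 12 in 1 cow. The restriction by means was therefore not a restriction in each cow. Nearly all members shared the direction, but the means of these same libraries chose them. The shared direction thus follows from that choice, and it was not set against other transcripts.

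Cows 6 and 13, with the fewest members inside the limits, also had the largest share of each epithelium's restricted transcripts in the other. The summed member level in GE was 20.2% of that in LE for cow 6 and 6.55% for cow 13, compared with 1.53% to 4.84% in cows 3, 10, 11 and 12. The 107 GE-restricted transcripts summed in LE to 14.9% of their GE level for cow 6 and to 23.9% for cow 13, compared with 2.96% to 5.37% in the other 4. Their LE sums, 596 TPM in cow 6 and 465 TPM in cow 13, lay within the 245 to 1047 TPM of the other 4. Their GE sums were lower, at 3986 TPM in cow 6 and 1941 TPM in cow 13, against 8067 to 19482 TPM. The members summed in cow 6 to 5324 TPM in LE and 1077 TPM in GE, and in cow 13 to 4132 TPM in LE and 271 TPM in GE. In ST of cow 6, the members summed to 7.75% of LE and the GE-restricted transcripts to 2.93% of GE. GE of cow 6 was the highest P4low GE library for 31 members, and ST of cow 6 the highest ST library for 29. Cells of a neighbouring type in these captures can move such values, and their part in the result was not tested.

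**Figure D4:**
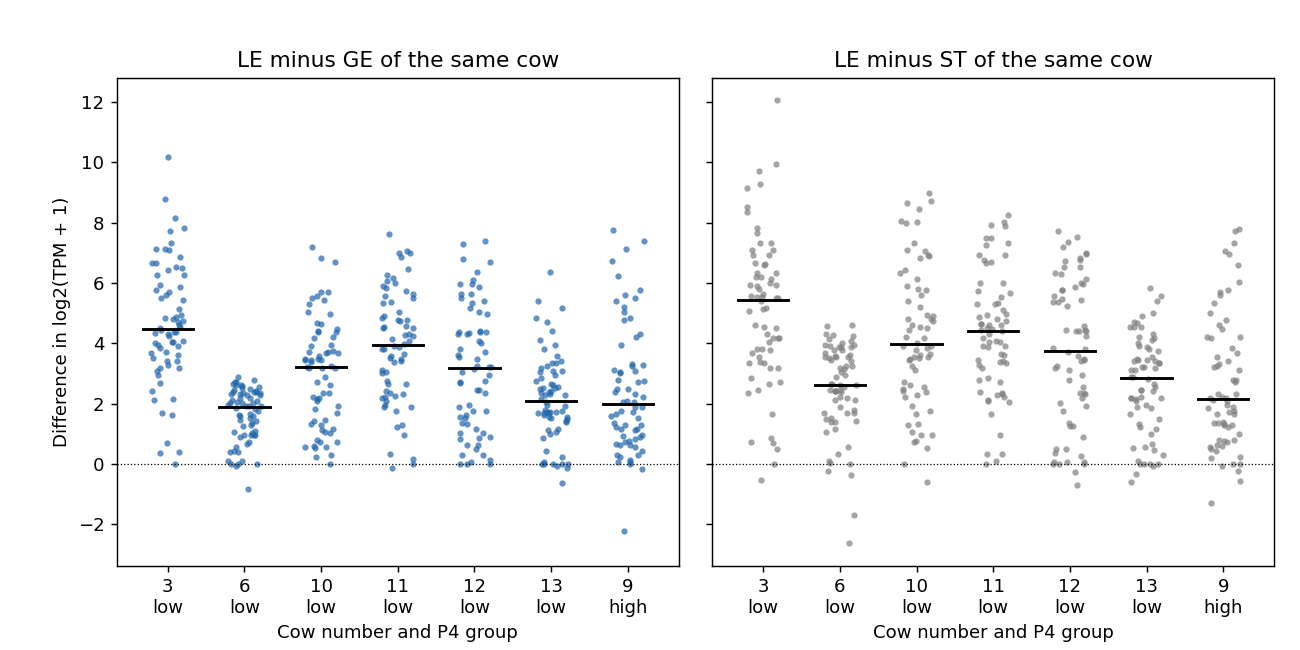
Difference in log2(TPM + 1) between LE and GE (left) and between LE and ST (right) of the same cow for the 68 transcripts (points), with the median of each cow as a line and cows along the x axis. Nearly all points lie above 0 in each of the 7 cows, and the differences from GE in cow 6 stay within a narrow, low range.

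The P4high libraries were not used by the rule and gave a separate measure of the restriction. LE of cow 9 held 2794 TPM summed over the members, 8.41 times the highest of the 6 P4high GE and ST libraries. The sums were 115 TPM in GE and 99.0 TPM in ST of cow 9, 315 TPM in GE of cow 2, 259 TPM in GE and 261 TPM in ST of cow 4, and 332 TPM in ST of cow 5. LE of cow 9 was above all 6 of these libraries for 54 of 68 members (79.4%), against 10.7% of the 8268 transcripts with a P4low LE mean of at least 10 TPM. It was above GE and ST of its own cow for 62 members, against 18.6% of the 8268. The ratio to the higher of the P4high means had a median of 7.46 over the 67 members with a level above 0.

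The full limits were met less often in P4high. LE of cow 9 reached 10 TPM for 27 members, reached 10 times both P4high means for 30, and met both for 14 (20.6%). Applied to P4high means over all transcripts, the same limits kept 68 of 37925 transcripts (0.179%), of which these 14 were members. Within cow 9 alone, 20 members met the limits.

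**Figure D5:**
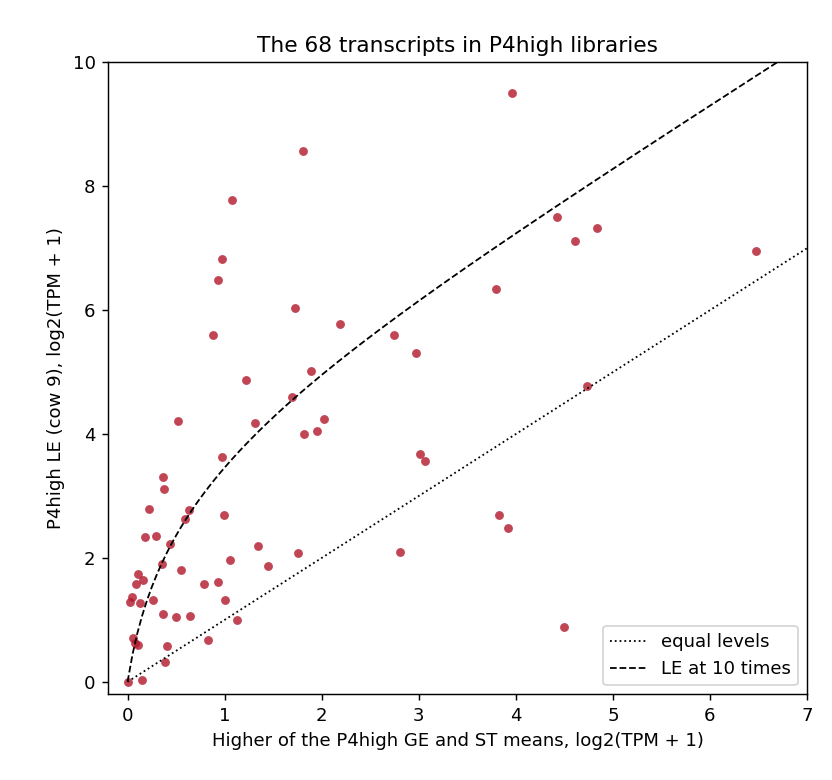
Level of each of the 68 transcripts in P4high LE (cow 9, y axis) against the higher of its P4high GE and ST means (x axis), both as log2(TPM + 1), with lines for equal levels and for LE at 10 times. Most points lie above the line of equal levels, and 30 lie at or above the line of 10 times.

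LE was not the highest type in P4high for 8 members with a level above 0, of which the next were singled out after their values were seen. ENSBTAT00000064751.2, at rank 29, held 149 TPM in P4low LE of cow 3, 105 in cow 13, 44.6 in cow 6, 13.5 in cow 10, 4.55 in cow 11 and 2.23 in cow 12. In P4high it held 0.854 TPM in LE of cow 9, but 47.7 and 16.9 TPM in GE of cows 2 and 4, 0 in GE of cow 9, and 11.1, 5.61 and 0.0767 TPM in ST of cows 4, 5 and 9. All 3 libraries of cow 9 were thus at or near 0, and the high GE levels came from cows with no LE library. ENSBTAT00000011866.5, at rank 2, held 4.57 TPM in LE of cow 9 and 8.40 to 21.3 TPM in the 3 P4high ST libraries.

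ENSBTAT00000028140.6, at rank 46, was at 26.5 TPM in LE of cow 9, against P4high means of 25.6 TPM in GE and 14.1 TPM in ST. These means rested mostly on cow 4, with 69.4 TPM in GE and 39.5 TPM in ST. The other P4high GE and ST libraries held at most 6.85 TPM. In cow 9, GE held 0.497 TPM and ST 0, so the limits of the rule were met within that cow. In P4low the transcript was at 120 TPM in LE of cow 10 and 2.66 to 21.97 TPM in the other LE libraries. It was at most 9.13 TPM in GE and at most 0.674 TPM in ST. ST of cow 4 was above every P4low ST library for it. That library also held 2647 TPM of the GE-restricted transcripts, against 37.3 to 147 TPM in P4low ST, and whether this bears on the member was not tested.

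The difference between LE and the other types in P4high cows was tested with edgeR's quasi-likelihood test over 27480 transcripts, which all 68 members entered after the low-count filter. Members could pass that filter through their P4low LE counts. The mean count was under 10 for 24 members in P4high GE and 33 in P4high ST, so the size of their log2 differences rests on few counts. Against GE, 64 of 68 members had a positive log2 difference (LE minus GE) and the median was 3.78, against -0.13 over all transcripts. None passed an adjusted p of 0.05 by edgeR, and 0.113% of all transcripts did. At an unadjusted p under 0.05 there were 26 members (38.2%), against 10.1% of all transcripts. The lowest adjusted p of a member was 0.0533 by edgeR, and DESeq2 called 10 members, all higher in LE, and 3.09% of all transcripts. With the cow as a replicate block, 1 member was called (0.0655% of all transcripts) and the median was 4.88. In the P4high samples alone 8 of the 44 members that passed the filter were called, against 1.37% of the 23266 transcripts tested there.

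Against ST, 63 of 68 members had a positive log2 difference (LE minus ST) and the median was 4.65, against -0.08 over all transcripts. By edgeR, 4 members passed an adjusted p of 0.05, all higher in LE, against 1.75% of all transcripts. At an unadjusted p under 0.05 there were 34 members (50%), against 16.1%. Without cow 4, 1 member was called, and without cow 5, none, while the log2 differences of the 4 stayed between 7.10 and 10.18 and between 7.05 and 11.71. DESeq2 called 18 members (8.42% of all transcripts), and the P4high samples alone gave 16 of 44 (7.78%). With the cow as a replicate block 4 members were called (1.27%). With the first letter of the sample titles (G or R, whose meaning is not given) as a term, 11 members were called (1.78%).

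The member with the lowest adjusted p against ST was ENSBTAT00000028430.5, at rank 14. It held 377 TPM in LE of cow 9, and 1.22, 0.134 and 0.808 TPM in ST of cows 4, 5 and 9. The log2 difference was 9.56 ± 1.84 (SE) with an adjusted p of 0.00754 by edgeR. In P4low it held 22.1 to 580 TPM in LE, 0.376 to 12.3 TPM in GE and 0 to 5.10 TPM in ST. The P4low levels are among those that chose it, and the P4high comparison rests on 1 LE library.

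The other 3 calls against ST were ENSBTAT00000027343.6 (rank 3), ENSBTAT00000085382.1 (rank 6) and ENSBTAT00000068469.1 (rank 20). ENSBTAT00000027343.6 held 219 TPM in LE of cow 9 and 0 to 2.56 TPM in P4high ST, a log2 difference of 8.52 ± 2.24 (SE, adjusted p = 0.0470 by edgeR). ENSBTAT00000085382.1 held 113 TPM and 0.152 to 0.192 TPM, a difference of 9.85 ± 2.56 (SE, adjusted p = 0.0442 by edgeR). ENSBTAT00000068469.1, the most even member, held 64.2 TPM and 0 to 1.22 TPM, a difference of 6.68 ± 1.72 (SE, adjusted p = 0.0430 by edgeR). In P4low LE, ENSBTAT00000027343.6 held 122 TPM in cow 13 to 1183 TPM in cow 12, and ENSBTAT00000085382.1 held 57.5 TPM in cow 12 to 670 TPM in cow 3. The lowest and highest cows thus differed between these members. The 1 P4high LE library was above all 3 P4high ST libraries for each of the 4, and its own spread was taken from the other groups of the fit. P4high ST held 0 to 43 counts of ENSBTAT00000027343.6, 4 to 5 of ENSBTAT00000085382.1 and 0 to 4 of ENSBTAT00000068469.1. The size of these differences thus rests on few ST counts.

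P4high and P4low libraries of each cell type were fitted over all 27480 transcripts as well. The P4low levels that chose the members enter these fits, so they are no independent test of the members and nothing is read from their p-values. By edgeR no member passed an adjusted p of 0.05 in any cell type, where 0% of transcripts were called in GE, 0.178% in ST and 0.138% in LE. At an unadjusted p under 0.05 by edgeR there were 16 members in GE (9.31% of all transcripts), 7 in ST (10.8%) and 6 in LE (6.24%). DESeq2 called 3 members in GE and 1 in ST, all lower in P4high. Over all 27480 transcripts DESeq2 called 587 in GE, of which 479 were lower in P4high. In ST it called 390, of which 234 were lower, so most calls at large had that direction too. The LE fit rests on 1 P4high library. Members passed the low-count filter through LE, and the mean count was under 10 for 9 members in P4low GE, 24 in P4high GE, 25 in P4low ST and 33 in P4high ST. The levels and log2 differences that follow are a description.

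The levels of LE in the 2 P4 groups were set side by side, with 1 P4high cow. LE of cow 9 was below the P4low median for 53 members (77.9%), against 68.7% of the 8268 transcripts, and below all 6 P4low LE libraries for 22 (32.4%), against 23.9%. It lay within the P4low range for 45 members and above it for 1. That member was ENSBTAT00000023581.4, at rank 12, with 728 TPM in cow 9, and 628 TPM in cow 10, 270 in cow 3, 81.6 in cow 13, 80.1 in cow 6, 64.4 in cow 11 and 2.13 in cow 12. Among the LE libraries with titles of prefix R, the summed member level was 2794 TPM in cow 9 and 4132 to 7810 TPM in the 4 P4low cows. The log2 difference (P4high minus P4low LE) had a median of -2.69 over the members, with 9 of 68 positive, against -0.22 over all transcripts. By limma voom with a cow block the median was -1.16 and 18 were positive. The P4low LE means chose the members for being high, so the lower levels in the other LE library cannot be told apart from that choice.

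In GE, most members had lower mean levels in the P4high libraries by edgeR. The log2 difference (P4high minus P4low) was negative for 59 of 68 members with a median of -1.48, against -0.09 over all transcripts. By limma voom with a cow block the median was -0.88 and 20 members were positive, and leaving out cow 2, 4 or 9 left 11 positive each. ENSBTAT00000011866.5 held 1.78, 5.57 and 1.92 TPM in P4high GE, and 1.98 to 333 TPM with a median of 10.4 TPM in P4low GE, so that the groups overlapped. Without cow 6, the median difference was -1.34 and 56 members were negative. The summed levels overlapped as well, at 115 to 315 TPM in P4high against 174 to 1077 TPM in P4low. Of the GE libraries with titles of prefix G, cows 2 and 4 (P4high) held 315 and 259 TPM, and cows 3 and 6 (P4low) 247 and 1077 TPM. Of those with prefix R, cow 9 held 115 TPM and the 5 P4low cows 174 to 319 TPM.

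In ST, 44 of 68 members had a negative log2 difference (P4high minus P4low), with a median of -0.64 against -0.04 over all transcripts. The direction over the members was not stable, since the median was -0.17 without cow 6 and 0.23 by limma voom with a cow block. The summed level was 99.0 to 332 TPM in P4high ST and 67.5 to 413 TPM in P4low ST, so the groups overlapped. With prefix G, ST held 261 and 332 TPM in the 2 P4high cows and 76.7 to 413 TPM in the 3 P4low cows, and with prefix R 99.0 TPM in cow 9 and 67.5 to 182.6 TPM in the 6 P4low cows.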

How the data were processed

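The 29 libraries of 13 cows measured polyadenylated RNA of the 3 cell types and were prepared with SMART-Seq v4 and Nextera XT. The authors quantified reads with Salmon 1.1.0 against Ensembl cDNA of ARS-UCD1.2, and deposited estimated counts and TPM (scaled by effective length) for each transcript; the submitters' processing notes also name DESeq2 1.26.0. Groups and cow numbers came from the labels.

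The members, lists and tests were chosen with earlier results of these data known. TPM was used for the rule and for levels. After rounding of the estimated counts, transcripts reaching 10 counts in 3 or more libraries were tested with edgeR 4.0.16 (TMM, quasi-likelihood, 6 group means over 29 libraries, Benjamini-Hochberg adjusted p at most 0.05) in R 4.3.3, after a check on simulated counts. The fit was per transcript. The gene lists, cell type markers and symbols that the design asked for could not be used, since no table at hand pairs transcripts with genes. At most 2 identifiers per direction or list were to be named, first in order of P4low LE level, with the nearest transcripts at each limit; others named were chosen after their values were seen.

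Alternatives were DESeq2 1.42.0, RLE, no filter and the cow as a replicate block (limma 3.58.1 voom for P4). P4high libraries alone, other limits of the rule and leaving out single cows were run as well. Each P4low cow was left out of the rule, and each P4low cow with an LE library out of P4 in LE. For the cell types and for P4 in GE and ST, the planned fits left out P4high cows alone. Leaving out cow 6 for overlaps and for P4 in GE and ST, and a term for the title prefix, were chosen after seeing the data. Libraries of 1 cow are paired by the animal: deviations from group means correlated with a median of 0.23 over 21 same-cow pairs, and -0.01 over 231 pairs of different cows and types. No libraries were identical. Nothing else in the labels marks separate preparations. Tables were made in Python 3.11.15 (pandas 2.3.3, numpy 2.4.6) and plots with matplotlib 3.10.9.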

Additional observations from a re-analysis of the deposited data

Results flagged for a closer look

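The values here stood apart from their own group. The gap between the highest or lowest library and the next exceeded Dixon's 95% critical value for the range of the group. Chance alone does this in about 1 in 20 groups of normally distributed values. That rate cannot be assumed here, since TPM was used without a transformation. Each value named below was the highest of its group. The levels of 26 of the 68 members (38.2%) did so in P4low LE, against 10.3% of the 8268 transcripts with a P4low LE mean of at least 10 TPM. In P4low GE 29 members did (42.6%), and in P4low ST 41 (60.3%). The share over other transcripts was not taken for GE and ST, so these counts cannot be judged against it. The mean count was under 10 for 9 members in P4low GE and 25 in P4low ST.

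Cow 3 held the highest summed level of the members in P4low LE, 16163 TPM, and the highest LE level of ENSBTAT00000008948.6, 5419.7 TPM. For ENSBTAT00000077173.1 it stood apart in all 3 cell types, at 244 TPM in LE, 13.9 in GE and 19.96 in ST.

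Cow 6 held the highest summed level in GE, 1077 TPM, and in ST, 413 TPM. It also stood apart for ENSBTAT00000011866.5 in GE (333 TPM) and ST (119 TPM), for ENSBTAT00000068469.1 in ST (6.62 TPM) and for ENSBTAT00000028140.6 in ST (0.674 TPM).

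Cow 13 stood apart in LE for ENSBTAT00000063757.2, with 1637 TPM, and for ENSBTAT00000030920.4, with 147 TPM. For the latter it also did so in GE (2.46 TPM) and in ST (3.59 TPM). It held 19.0 TPM of ENSBTAT00000064751.2 in GE and 50.8 TPM of ENSBTAT00000023581.4 in ST. Cow 10 stood apart for ENSBTAT00000028140.6, with 120 TPM in LE and 9.13 TPM in GE.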

How the results depend on the processing

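The number of LE-restricted transcripts was 143 at a ratio of at least 5, 29 at a ratio of at least 20, and 43 with 1 TPM added to each mean. Medians in place of means gave 54, of which 42 were among the 68, and TMM-scaled CPM gave 83, of which 61 were. Leaving out 1 cow in turn gave 50 (without cow 3) to 82 (without cow 6), and 28 of the 68 were kept whichever cow was left out. For LE against GE in P4high, members called were 1 with the cow as a replicate block, 8 in P4high samples alone and 10 by DESeq2, and 0 without cow 2 or cow 4. For LE against ST, against 4 members, they were 1 without a count filter, 16 in P4high samples alone, 18 by DESeq2, 11 with the title prefix as a term, and 0 to 1 with 1 cow left out. The replicate block left 4 there. Of those called in the main test, ENSBTAT00000085382.1 was not called under the block (adjusted p = 0.0633 by edgeR) or the prefix term (0.0508 by edgeR). For P4, an unadjusted p under 0.05 by edgeR was reached in GE by 16 members and 2559 of all transcripts. By voom with the block, 2 members and 2735 of all transcripts reached it. Without cow 2, 4 and 9, it was reached by edgeR by 7, 8 and 5 members and by 1679, 1441 and 2021 of all transcripts. Nothing is read from these counts, since the P4low levels that chose the members enter the fits. DESeq2 called 3 members in GE, 1 in ST and 5 in LE, and 0 were called under every other alternative that was run. The median log2 difference of members in ST was reversed by limma voom with a cow block, at 0.23. Leaving out cow 9 was not run for the tests in P4high, since it was the 1 P4high LE library. All transcripts called by edgeR differed by over 1.5 times in P4high samples alone (318 for LE against GE, 1809 for LE against ST), and by DESeq2 (850, 2313, 587 in GE, 390 in ST and 511 in LE), against 31, 482, 0, 49 and 38. With the replicate block they were 18 and 350 for the cell types, and 76, 89 and 191 by voom for P4 in GE, ST and LE. Depth limits the GE and ST levels of low members, and the tests rest on 1 P4high LE library. The cause of these changes was not tested.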
